A study of Mus musculus with 2 samples.

Results

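The glucocorticoid-induced genes described here are 9 genes that the glucocorticoid receptor is known to raise in many cells, Per1, Fkbp5, Klf9, Tsc22d3, Ddit4, Cxcr4, Txnip, Pik3ip1 and Zbtb16, together with Nr3c1, which encodes that receptor. They are 10 of the 31053 genes in the count matrices, were taken by symbol, and all 10 were found in both. They were chosen because several of them were known to differ between the libraries in these data, so the differences given here describe that choice and were not tested. The libraries hold peritoneal cells of mice that received zymosan, a yeast cell wall preparation that causes sterile peritonitis, at 1 mg per animal, and the cells were taken on day 3. The Cd36-/- library came from mice of strain LysM-Cre (x) floxed CD36, in which the lysozyme promoter drives Cre in myeloid cells, and the fl/fl library from mice of strain floxed CD36 without Cre, both aged 10 to 14 weeks. Each library is 1 pool of 4 replicates and every mouse had zymosan, so genotype, pool and library cannot be told apart, and there is no spread between replicates. All cell classes below were assigned from marker genes.

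Glucocorticoids are steroid hormones of the adrenal cortex whose blood level follows the time of day and stress. The receptor waits in the cytoplasm bound to the HSP90 chaperone machinery, moves to the nucleus when it binds hormone, and acts on DNA at response elements that often lie far from the start site of the gene. In macrophages these hormones are known for dampening inflammatory cytokines and for supporting the removal of dead cells, and in lymphocytes for holding cells in the bone marrow and for promoting apoptosis.

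The sequences of 6 of the 11 start site windows of the members are shown, picked because they hold a match to a motif marked here. The other windows, which are further ones of Per1 and Tsc22d3 and those of Ddit4 and Pik3ip1, hold no such match and are not shown. Each runs from 250 bases before to 50 bases after a RefSeq start site on build GRCm38.p6, 5′ to 3′ on the strand of the gene. Capitals mark an E-box (CACGTG, bound by the clock and by MYC-type factors), a forkhead motif (GTAAACA, the FOXO type), a loose response element of the receptor (G, any base, ACA, any 3 bases, TGT, any base, C) or its hexamer TGTTCT. The search covered both strands, and no match overlapped another one. Per1 is shown at chr11:69098699-69098998 (plus strand), Fkbp5 at chr17:28486100-28486399 (minus strand), Klf9 at chr19:23140976-23141275 (plus strand), Txnip at chr3:96557707-96558006 (plus strand), Tsc22d3 at chrX:140600473-140600772 (minus strand) and Cxcr4 at chr1:128592250-128592549 (minus strand).
Per1: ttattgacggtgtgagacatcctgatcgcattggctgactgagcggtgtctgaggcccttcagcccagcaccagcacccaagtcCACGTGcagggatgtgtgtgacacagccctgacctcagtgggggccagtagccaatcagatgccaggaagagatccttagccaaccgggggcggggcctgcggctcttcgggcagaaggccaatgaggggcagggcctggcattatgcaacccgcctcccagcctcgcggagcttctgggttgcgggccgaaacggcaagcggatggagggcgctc
Fkbp5: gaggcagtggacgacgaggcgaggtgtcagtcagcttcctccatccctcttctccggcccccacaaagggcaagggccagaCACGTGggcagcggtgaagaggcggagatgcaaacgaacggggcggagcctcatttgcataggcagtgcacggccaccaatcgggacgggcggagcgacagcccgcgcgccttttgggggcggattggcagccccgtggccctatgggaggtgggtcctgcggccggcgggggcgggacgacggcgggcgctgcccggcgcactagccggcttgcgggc
Klf9: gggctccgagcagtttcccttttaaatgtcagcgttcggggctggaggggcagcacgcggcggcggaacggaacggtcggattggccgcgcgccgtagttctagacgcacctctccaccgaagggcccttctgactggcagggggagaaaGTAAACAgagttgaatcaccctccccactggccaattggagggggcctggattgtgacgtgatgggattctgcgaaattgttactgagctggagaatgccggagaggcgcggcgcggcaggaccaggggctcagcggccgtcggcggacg
Txnip: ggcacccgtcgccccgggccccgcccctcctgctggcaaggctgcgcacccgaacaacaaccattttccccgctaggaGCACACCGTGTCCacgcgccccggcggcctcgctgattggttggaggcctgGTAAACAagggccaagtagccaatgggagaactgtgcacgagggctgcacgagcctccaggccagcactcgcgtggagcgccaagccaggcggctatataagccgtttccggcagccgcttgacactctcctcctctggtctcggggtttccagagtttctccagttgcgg
Tsc22d3: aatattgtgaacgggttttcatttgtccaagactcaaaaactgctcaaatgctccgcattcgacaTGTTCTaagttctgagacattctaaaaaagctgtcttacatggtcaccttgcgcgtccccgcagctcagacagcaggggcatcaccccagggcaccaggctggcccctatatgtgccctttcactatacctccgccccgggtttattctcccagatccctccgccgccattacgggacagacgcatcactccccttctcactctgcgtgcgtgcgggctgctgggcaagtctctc
Cxcr4: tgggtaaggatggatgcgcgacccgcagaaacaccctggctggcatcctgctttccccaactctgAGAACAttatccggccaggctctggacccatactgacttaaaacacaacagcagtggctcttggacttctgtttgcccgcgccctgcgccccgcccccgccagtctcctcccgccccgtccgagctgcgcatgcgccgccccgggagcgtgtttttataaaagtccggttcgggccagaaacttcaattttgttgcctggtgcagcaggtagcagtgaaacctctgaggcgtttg

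The strict palindrome, AGAACA, any 3 bases, then TGTTCT, was in 0 of the 11 start site windows of the 8 members that have one, and in 3 (0.00913%) of all 32851 windows. The loose element was in 1 member window, that of Txnip (GCACACCGTGTCC), and in 0.475% of all windows. TGTTCT or its reverse complement was in 2 member windows, those of Tsc22d3 and Cxcr4, and in 19.0% of all. An E-box was in 2, those of Per1 and Fkbp5, and in 7.15% of all. GTAAACA was in 2, those of Klf9 and Txnip, and in 3.65% of all. TGACG, the core of the cyclic AMP response element, was in 4 member windows and in 20.8% of all, and is not capitalised. These are matches of letters and not binding sites.

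Sequencing gave 116600732 UMIs (counted RNA molecules) over 16543 cell barcodes for the Cd36-/- library and 117238057 over 15537 for the fl/fl library. After filters, 15023 Cd36-/- and 14005 fl/fl cells remained, with a median of 6570 UMIs in Cd36-/- and 6897 in fl/fl. Cells of both libraries shared 383 barcodes. Of the Cd36-/- cells 9497 were macrophages, 3047 B cells, 679 T cells, 472 natural killer (NK) cells and 188 type 2 conventional dendritic cells (cDC2). Of the fl/fl cells 7378 were macrophages, 4319 B cells, 606 T cells, 318 NK cells and 270 cDC2. Macrophages were divided into large peritoneal macrophages (LPM, the resident type, with Gata6 and its companions) with high or low Alox15, macrophages with few LPM genes and high MHC class II, and other LPM-low macrophages. The division by Alox15, a lipoxygenase gene of resident cells, was placed after the values were seen, and 21.8% of Cd36-/- and 26.3% of fl/fl LPM lie near its limit. Cd36 itself was at 175 CPM (depth-scaled counts, the gene's share of all UMIs of the class) in Cd36-/- macrophages and 249 in fl/fl macrophages. It was lower but far from absent, and whether the counted 3′ end lies outside the deleted part is not given in the sources used here. In B cells Cd36 was 30.5 CPM in Cd36-/- and 31.4 in fl/fl, a log2 ratio of -0.04 (-0.21 to 0.13). In T cells its log2 ratio was 0.04 (-0.78 to 0.86). For lymphocytes, Cd36-/- therefore names the library that the cells came from, and no lower Cd36 was seen in B or T cells.

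In macrophages as a whole, all 10 members, taken at any level, were lower in the Cd36-/- library. Genes were compared from 20 CPM in 1 library, and 53.9% of these 4596 genes were lower. Of the 6 members that reached this level, Per1, Fkbp5 and Klf9 were at least 2-fold lower. Over all genes compared, 0.109% were that much lower. The other genes past this limit were Lepr and AY036118 on the lower side and Lyz1 on the higher side (0.0218% of genes), and 99.3% of genes lay within 1.5-fold. Because the members were picked on this contrast, their count against that background is given for scale only. Klf9 lies just inside the 2-fold limit, at 50.8 CPM in Cd36-/- and 102 CPM in fl/fl cells, with an interval of the log2 ratio of Cd36-/- over fl/fl from -1.06 to -0.94. Tsc22d3, the next of these 6 outside it, was at 160.4 CPM in Cd36-/- and 264 in fl/fl and a log2 ratio of -0.72. With a minimum of 5 CPM, Ddit4 (2.65 CPM in Cd36-/- and 8.67 CPM in fl/fl cells) and Cxcr4 (3.95 CPM in Cd36-/- and 13.0 in fl/fl) joined them, for 5 members, where 0.107% of genes were 2-fold lower. All intervals below are exact 95% intervals for counting error only.

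Fkbp5 encodes a co-chaperone of HSP90 that lowers the hormone affinity of the receptor, and its induction forms a short feedback loop. The gene lies at chr17:28399094-28517527 on the minus strand (GENCODE M21, mm10). Among macrophages the difference in its level varied with the kind of cell. In other LPM-low macrophages it was 7.59 CPM in Cd36-/- cells and 36.8 CPM in fl/fl cells, a log2 ratio of -2.28 (-2.47 to -2.09). In MHC class II-high macrophages it was 7.24 CPM in Cd36-/- and 34.6 in fl/fl, a log2 ratio of -2.26. In Alox15-low LPM it was 12.4 CPM in Cd36-/- cells and 38.2 CPM in fl/fl cells. In Alox15-high LPM, 54.3 CPM in Cd36-/- cells stood against 48.7 CPM in fl/fl cells, a log2 ratio of 0.16 (-0.06 to 0.38) whose interval includes 0. The interval of Alox15-high LPM thus does not overlap those of the other macrophage kinds. Per1 and Klf9 had narrower ranges of ratios over the 4 kinds.

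The same was seen when LPM were ordered by their Alox15 level, in 7 bins from 0 to 5 UMIs per 10000 up to 40 and more. Fkbp5 was 5.21 CPM in Cd36-/- cells of the lowest bin and 36.5 CPM in fl/fl cells of that bin. From 15 to 20 Alox15 UMIs per 10000 it was 21.3 CPM in Cd36-/- cells, against 44.5 CPM in fl/fl cells. From 30 to 40 it was 68.2 CPM in Cd36-/- cells and 64.9 CPM in fl/fl cells, and in the highest bin 82.2 CPM in Cd36-/- and 70.5 in fl/fl. Within the Cd36-/- library the level was higher in each bin than in the one below it, and in the fl/fl library the first 3 bins lay between 35.3 CPM and 37.8 CPM. The highest bin holds 242 Cd36-/- and only 49 fl/fl cells. Alox15-high LPM also differed between the libraries in C1qa, a complement gene of macrophages, at 3280 CPM in Cd36-/- and 2338 CPM in fl/fl cells.

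**Figure D1:**
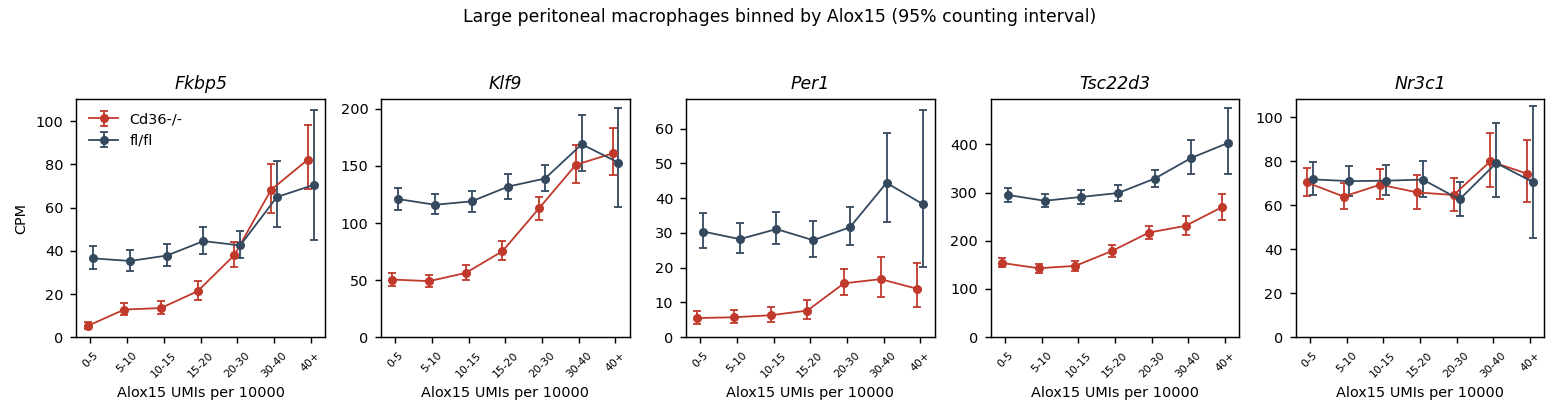
Level of 5 genes (CPM) in large peritoneal macrophages, binned by Alox15 UMIs per 10000, in the Cd36-/- and the fl/fl library; bars are 95% counting intervals. The intervals of the libraries overlap for Fkbp5 in the bins from 20 upwards and for Klf9 from 30 upwards, Per1 and Tsc22d3 stay lower in Cd36-/- cells in all 7 bins, and Nr3c1 runs close in both.

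Klf9 encodes a Krüppel-like zinc finger factor that is a direct target of the receptor and a transcriptional repressor in macrophages and other cells. It lies at chr19:23141226-23168134 on the plus strand. Among the 9 non-overlapping classes it was highest in Alox15-high LPM in both libraries, with 132 CPM in Cd36-/- and 146 CPM in fl/fl cells, a log2 ratio of -0.15 (-0.28 to -0.01). In Alox15-low LPM it was 56.1 CPM in Cd36-/- and 121 CPM in fl/fl cells. In other LPM-low macrophages it was 35.6 CPM in Cd36-/- and 91.1 in fl/fl, a log2 ratio of -1.36, and in MHC class II-high macrophages 28.6 CPM in Cd36-/- and 66.5 in fl/fl. In both libraries the order of the 4 macrophage kinds was the same and their intervals did not overlap. Outside macrophages Klf9 was lower in every other of the 9 classes, at 6.08 CPM in Cd36-/- and 7.87 CPM in fl/fl B cells, and in cDC2 it rested on 6 UMIs in Cd36-/- and 45 in fl/fl. The few fibroblasts and mesothelial cells, 18 in Cd36-/- and 20 in fl/fl, had 203 CPM in Cd36-/- and 128 CPM in fl/fl, on 10 UMIs in Cd36-/- and 16 in fl/fl.

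Per1 encodes a repressor of the circadian clock whose transcription the receptor also drives directly. It lies at chr11:69095217-69109960 on the plus strand. It had the lowest ratio of the members in other LPM-low macrophages, at 5.96 CPM in Cd36-/- and 30.3 CPM in fl/fl cells, a log2 ratio of -2.35 (-2.57 to -2.13). In Alox15-high LPM it was 15.5 CPM in Cd36-/- cells and 34.6 CPM in fl/fl cells, a log2 ratio of -1.15 (-1.49 to -0.82). There Per1 was thus still lower in Cd36-/- cells while Fkbp5 was not. In B cells Per1 was 4.14 CPM in Cd36-/- and 7.99 CPM in fl/fl cells, on 62 UMIs in Cd36-/- and 199 in fl/fl. Across the fl/fl macrophage kinds the levels, 27.7 to 34.6 CPM, did not differ beyond their intervals from one neighbour to the next.

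Tsc22d3 encodes GILZ, a leucine zipper protein known for holding back NF-kappaB and AP-1. It lies at chrX:140539528-140600659 on the minus strand. It was lower in the Cd36-/- library in all 9 non-overlapping classes, with every interval below 0, but never by 2-fold. In Alox15-low LPM it was 154 CPM in Cd36-/- and 291 CPM in fl/fl cells, a log2 ratio of -0.92. In Alox15-high LPM it was 230.4 CPM in Cd36-/- and 342 in fl/fl, a log2 ratio of -0.57 (-0.66 to -0.48). Among these classes it was highest in B-2 cells, at 632 CPM in Cd36-/- and 737 CPM in fl/fl cells, where the log2 ratio was -0.22. Neutrophils, which are not among them, had 1059 CPM in Cd36-/- and 1625 CPM in fl/fl cells, on 45 UMIs in Cd36-/- and 152 in fl/fl. Zbtb16, the gene of the zinc finger factor PLZF that innate-like T cells need, was sparse in all 9 classes. It was highest in Alox15-high LPM among the 9 classes, with 6.91 CPM on 56 UMIs in Cd36-/- cells and 10.3 CPM on 58 UMIs in fl/fl cells. In the fl/fl library the interval of Alox15-high LPM overlapped that of the next class, Alox15-low LPM. Gamma-delta T cells, which are a part of the T cells and not 1 of the 9 classes, had a higher Zbtb16 level in both libraries. In fl/fl it was 32.7 CPM. These levels rest on 4 UMIs in 68 Cd36-/- cells and 7 UMIs in 60 fl/fl cells. In both libraries their intervals overlapped those of Alox15-high LPM. In B cells Zbtb16 gave 3 UMIs in Cd36-/- and 2 in fl/fl.

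**Figure D2:**
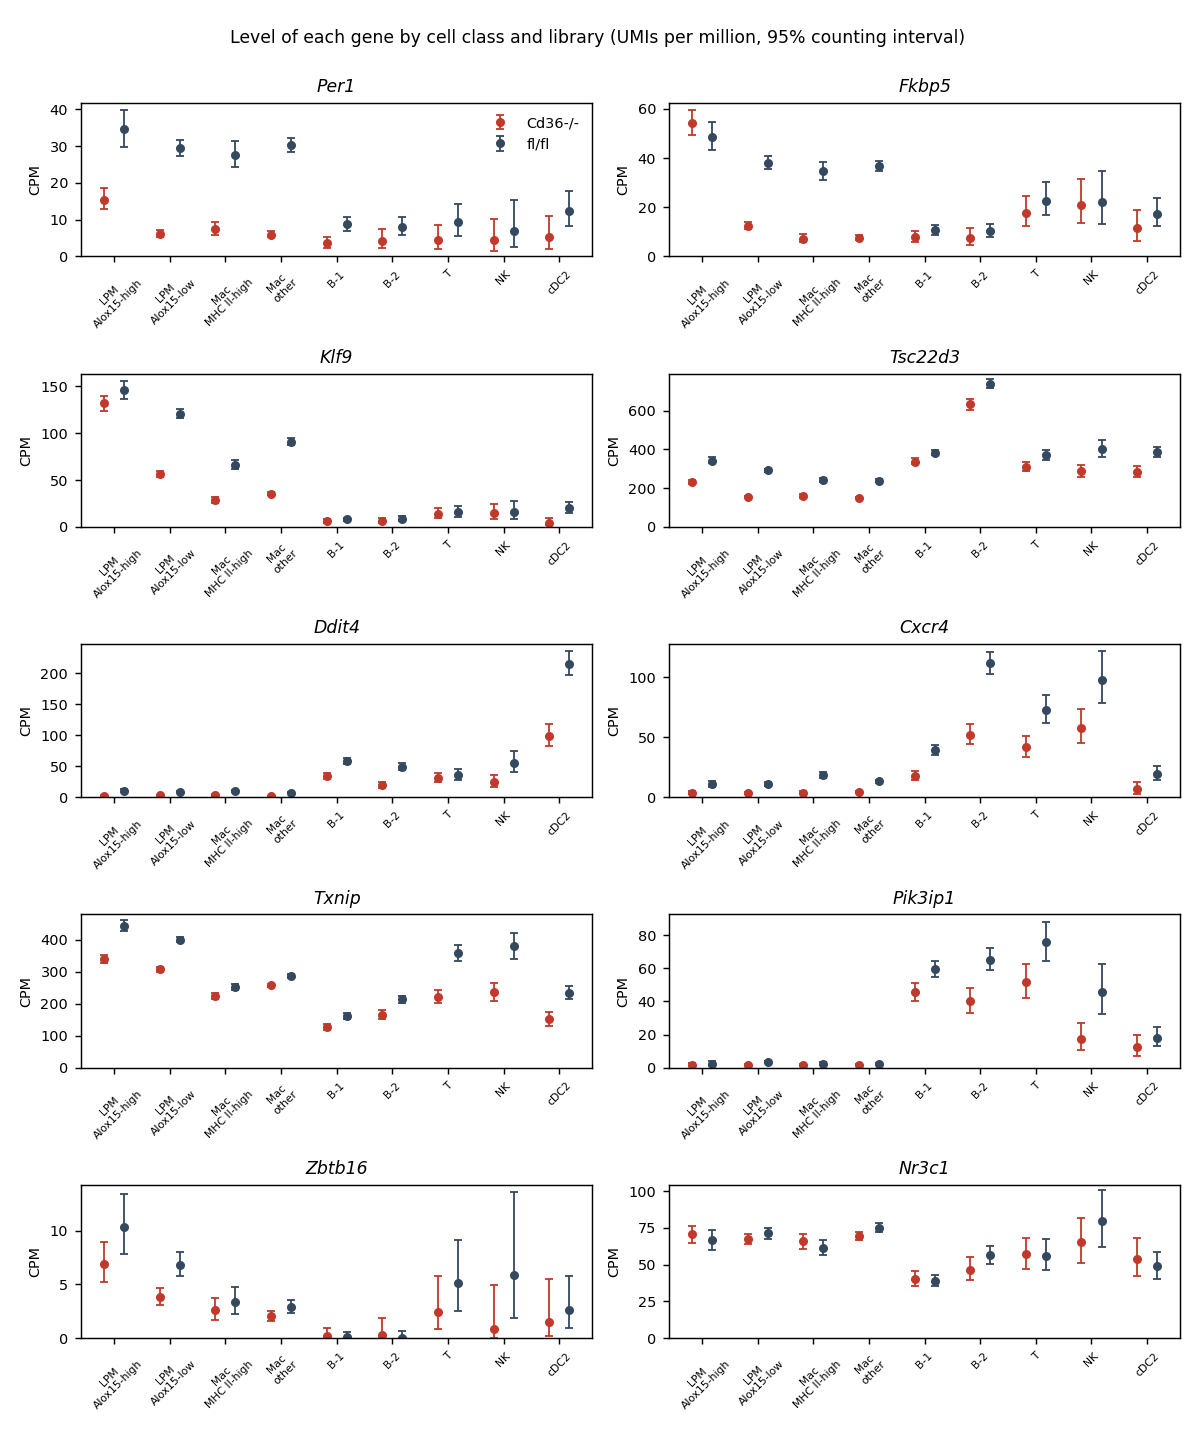
Level of each of the 10 genes (CPM) in 9 non-overlapping classes, Cd36-/- and fl/fl side by side, with 95% counting intervals. Klf9 is macrophage-high in both libraries and Per1 in fl/fl, while in Cd36-/- only Alox15-high LPM stand apart for Per1. Cxcr4 and Pik3ip1 are lymphocyte-high, and Nr3c1 has an interval of its ratio below 0 in 1 class, other LPM-low macrophages.

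Of the genes that restrain growth and glucose use, Txnip encodes a thioredoxin-binding arrestin that limits glucose uptake, Ddit4 the mTORC1 inhibitor REDD1, and Pik3ip1 an inhibitor of PI3-kinase. Txnip (chr3:96557957-96561883, plus strand) was lower in Cd36-/- cells in all 9 classes. Among these the difference was widest in T and NK cells, at 221 CPM in Cd36-/- and 358 CPM in fl/fl T cells (log2 ratio -0.70) and at 236 CPM in Cd36-/- and 379.7 in fl/fl in NK cells (-0.69). In other LPM-low macrophages it was 258 CPM in Cd36-/- and 286 CPM in fl/fl cells. Ddit4 (chr10:59949669-59951834, minus strand) was, in cDC2, at 99.0 CPM in Cd36-/- cells and 216 CPM in fl/fl cells, a log2 ratio of -1.12 (-1.41 to -0.84). In B cells it was 29.1 CPM in Cd36-/- and 56.0 CPM in fl/fl cells, and in macrophages 2.65 CPM in Cd36-/- and 8.67 in fl/fl. Pik3ip1 (chr11:3330401-3342971, plus strand) was a lymphocyte gene here, at 40.4 CPM in Cd36-/- and 61.5 CPM in fl/fl B cells. In NK cells it was 17.6 CPM in Cd36-/- and 45.6 CPM in fl/fl cells, on 20 UMIs in Cd36-/- and 39 in fl/fl, a log2 ratio of -1.37 (-2.23 to -0.56). Macrophages were near 0 for it, at 1.74 CPM in Cd36-/- and 2.64 CPM in fl/fl cells. Txnip overlaps Gm15441 and Pik3ip1 overlaps Gm12592 on the other strand, and whether the counting used strand is not given in the sources used here.

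Cxcr4 encodes the receptor for the chemokine CXCL12, which keeps lymphocytes and neutrophils in the bone marrow. It lies at chr1:128588199-128592293 on the minus strand. It was lower in the Cd36-/- library in all 9 classes with every interval below 0. In B-2 cells it was 52.2 CPM in Cd36-/- cells and 112 CPM in fl/fl cells, a log2 ratio of -1.10 (-1.36 to -0.85). In B-1 cells it was 17.9 CPM in Cd36-/- and 39.1 in fl/fl, a log2 ratio of -1.13. T cells had 41.6 CPM in the Cd36-/- and 72.8 CPM in the fl/fl library, and MHC class II-high macrophages 3.81 CPM in Cd36-/- and 18.3 in fl/fl. In neutrophils, of which there were 57 in Cd36-/- and 103 in fl/fl, it was 447 CPM in Cd36-/- and 449 CPM in fl/fl cells. The B-cell marker Cd79a was at 46.2 CPM in Cd36-/- and 61.0 CPM in fl/fl macrophages, with 2406 CPM in Cd36-/- and 2388 in fl/fl in B cells, and the part of B-cell RNA in the Cxcr4, Ddit4 and Pik3ip1 values of macrophages was not tested. Here and elsewhere, fewer cells with a transcript and fewer transcripts per cell cannot be told apart in a summed level.

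Nr3c1, the receptor itself, lies on chromosome 18. It was lower in Cd36-/- cells in 4 of the 9 classes, with an interval below 0 in 1 of them, other LPM-low macrophages (69.7 CPM in Cd36-/- and 75.2 CPM in fl/fl cells). In macrophages it was 68.5 CPM in Cd36-/- and 71.4 CPM in fl/fl cells, a log2 ratio of -0.06. Across the 4 macrophage kinds the log2 ratio ran between -0.11 and 0.09. In B cells it was 42.4 CPM in Cd36-/- and 45.4 in fl/fl, in T cells 56.9 CPM in Cd36-/- and 56.1 in fl/fl and in NK cells 65.1 CPM in Cd36-/- and 79.5 in fl/fl. Among the 9 classes it was lowest in B-1 cells in both libraries, at 40.3 CPM in Cd36-/- and 39.0 CPM in fl/fl cells. In B-2 cells it was 46.6 CPM in Cd36-/- and 56.3 CPM in fl/fl cells, a log2 ratio of -0.27 (-0.57 to 0.02). Receptor protein and hormone were not measured in these files.

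Of the 10 members, 9 were lower in Cd36-/- than in fl/fl B cells (44.9% of all genes compared), 9 in T cells (37.1%) and 10 in NK cells (44.0%). Those shares cover genes from 20 CPM in 1 library, while the counts take members at any level. Some of these members rest on few UMIs, with intervals that include 0. In NK cells Per1 had 5 UMIs in Cd36-/- and 6 in fl/fl, and Zbtb16 1 in Cd36-/- and 5 in fl/fl. In B cells 1 of the 6 members at 20 CPM was at least 2-fold lower, Cxcr4, where 0.0963% of all genes were. In B-2 cells 2 of 6 were, against 0.181% of all genes, and in B-1 cells 1 of 6, against 0.197%. In T cells 0 of 7 were, against 0.308%, and in NK cells 2 of 7, against 1.37%. In cDC2 1 of 4 was, against 0.433%. The 9 induced genes summed to 685 CPM in Cd36-/- and 901 CPM in fl/fl B cells, to 694 CPM in Cd36-/- and 967 in fl/fl in T cells, to 663 CPM in Cd36-/- and 1034 in fl/fl in NK cells, and to 521 CPM in Cd36-/- and 793 in fl/fl in macrophages. Tsc22d3 and Txnip made up most of each sum. In B cells Tsc22d3 was at 427 CPM in Cd36-/- and 513 in fl/fl, and Txnip at 141 CPM in Cd36-/- and 181 in fl/fl. Macrophage RNA in these classes, read from C1qa, C1qb and C1qc, was 5.68% of the macrophage level in Cd36-/- and 4.28% in fl/fl B cells, and 8.46% in Cd36-/- and 6.44% in fl/fl in NK cells. With that RNA subtracted the log2 ratio in B cells was -1.14 for Cxcr4, -0.94 for Ddit4 and -0.14 for Klf9, whose own value was -0.37. In NK cells the subtraction moved Fkbp5 from -0.07 to 0.01 and Klf9 from -0.13 to 0.12, so neither was then lower. Per1, Tsc22d3, Ddit4, Cxcr4 and Txnip stayed lower there.

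**Figure D3:**
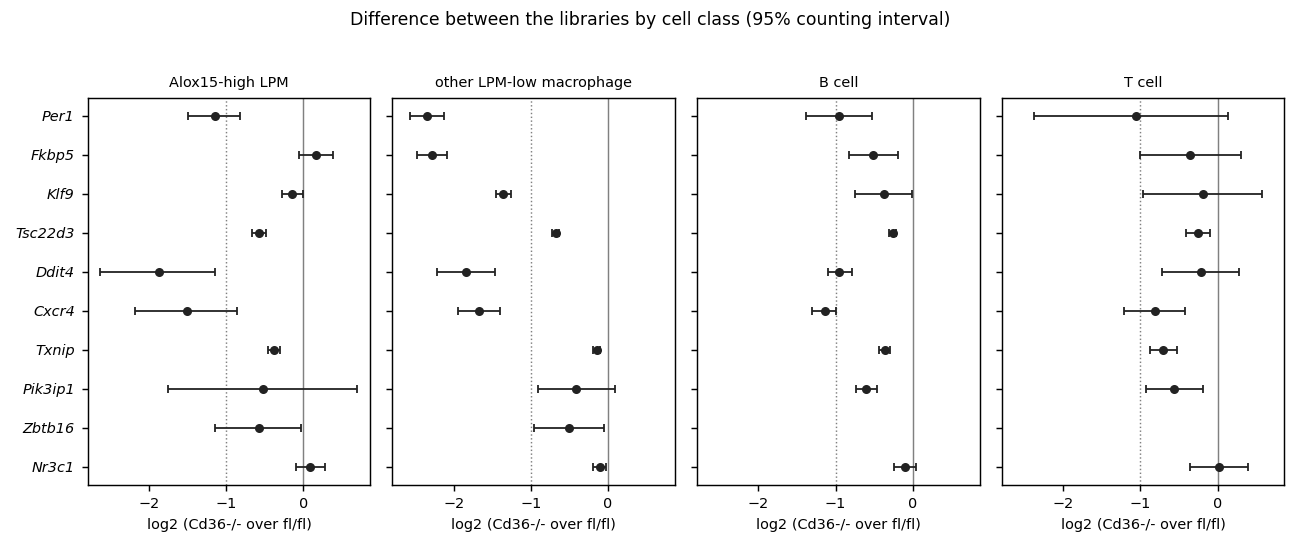
Log2 ratio of Cd36-/- over fl/fl for each gene in Alox15-high LPM, other LPM-low macrophages, B cells and T cells, with 95% counting intervals; genes with under 20 UMIs in both libraries together are left out and the dotted line is 2-fold lower. Fkbp5 lies at 0.16 in Alox15-high LPM and at -2.28 in other LPM-low macrophages, and Nr3c1 between -0.11 and 0.09 in these macrophages.

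By kind of macrophage, 3 of the 6 members at 20 CPM were at least 2-fold lower in other LPM-low macrophages (0.150% of all genes), in MHC class II-high macrophages (0.156%) and in Alox15-low LPM (0.133%), and 1 of 6, Per1, in Alox15-high LPM (0.131%). Without gates, levels were compared in 10 macrophage clusters that were made with the members left out. Per1, Fkbp5, Klf9, Tsc22d3, Ddit4, Cxcr4 and Txnip were lower in Cd36-/- cells in all 10, and Nr3c1 in 6 of 10. The interval lay below 0 in all 10 for Per1, Klf9, Tsc22d3 and Cxcr4. It did so in 8 for Fkbp5 and Ddit4, in 7 for Txnip and in 0 for Nr3c1. No share over all genes is given per cluster. Fkbp5 was at least 2-fold lower in 8 of these clusters. In the cluster led by Cxcl13, Alox15 and Vsig4 it was 80.0 CPM in Cd36-/- cells and 85.4 CPM in fl/fl cells, and in the Retnla, Fcrls and Ear2 cluster 27.7 CPM in Cd36-/- and 31.7 in fl/fl. The lowest ratio was in the Hp, Prtn3 and Chil3 cluster, with 88 UMIs in Cd36-/- and 393 in fl/fl cells, a log2 ratio of -2.92. Median depth per cell was 6425 UMIs in Cd36-/- and 6997 in fl/fl Alox15-high LPM, and 8581.5 in Cd36-/- and 9973 in fl/fl other LPM-low macrophages.

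**Figure D4:**
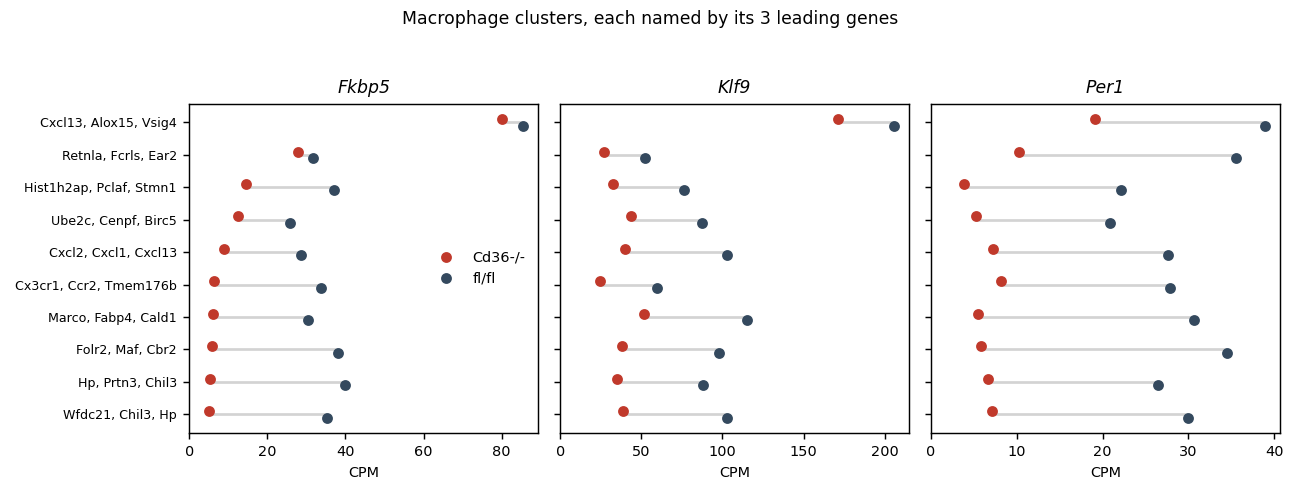
Level of Fkbp5, Klf9 and Per1 (CPM) in 10 macrophage clusters, each named by its 3 leading genes, in Cd36-/- and fl/fl cells. The cluster led by Cxcl13, Alox15 and Vsig4 has the highest Fkbp5 in both libraries, 80.0 CPM in Cd36-/- and 85.4 in fl/fl.

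The share of macrophages with at least 1 UMI followed the levels. Per1 was seen in 5.74% of Cd36-/- and 23.9% of fl/fl macrophages, and in 1.08% in Cd36-/- and 5.31% in fl/fl after each cell was thinned to 1500 UMIs. Fkbp5 was seen in 9.12% in Cd36-/- and 27.0% in fl/fl, or 2.07% in Cd36-/- and 6.09% in fl/fl thinned, and Klf9 in 29.9% in Cd36-/- and 54.4% in fl/fl, or 7.54% in Cd36-/- and 15.4% in fl/fl. Nr3c1 was seen in 40.6% in Cd36-/- and 44.9% in fl/fl, or 10.1% in Cd36-/- and 10.8% in fl/fl thinned. As a gauge of free RNA, C1qa gave a UMI in 44.0% of Cd36-/- and 37.8% of fl/fl B cells, at a median of 3932 UMIs in Cd36-/- and 4422 in fl/fl, while Zbtb16 gave one in 0.0985% in Cd36-/- and 0.0463% in fl/fl. Within cells of like depth, Fkbp5 and Klf9 UMIs occurred in the same cells more often than depth alone gives in LPM: the odds ratio over 10 depth groups was 2.43 in Cd36-/- and 1.97 in fl/fl Alox15-high cells, and 2.56 in Cd36-/- and 1.45 in fl/fl Alox15-low cells. In other LPM-low macrophages it was 0.960 in Cd36-/- and 1.09 in fl/fl. For Per1 and Klf9 in Alox15-high LPM it was 1.05 in Cd36-/- and 0.944 in fl/fl. These odds ratios are given without intervals. The groups were made by depth alone, and a shared link to Alox15 level or to the pooled replicates was not tested.

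The genes most like each member over 9 classes in both libraries, 18 points that share library and depth, were found by Pearson's r of log2(CPM + 10) among 6800 genes. Klf9 (0.824) and Fkbp5 (0.808) came first for Per1, then St13 (0.801), a co-chaperone of the HSP70 and HSP90 system. For Fkbp5 they were Rnf169 (0.811), Per1 (0.808) and Klf9 (0.789). For Klf9 they were Thbd (0.959), Glul (0.958) and Mst1r (0.956), and for Tsc22d3 Slc38a1 (0.891), Smap2 (0.882) and Foxp1 (0.880). Ddit4 was most like Dock10 (0.918), Mycbp2 (0.897) and Zmiz2 (0.894), and Cxcr4 most like 4833420G17Rik, Dhx30 and Mir142hg (0.960 each). Txnip was most like Impdh1 (0.905), Zbtb16 (0.899) and Notch1 (0.881), and Zbtb16 most like Notch1 (0.903), Txnip (0.899) and Mfge8 (0.880). Pik3ip1 was most like the ribosomal protein genes Rps24 (0.986), Rpl27a (0.983) and Rps3 (0.981), and Nr3c1 most like Galnt1 (0.932), Tmem30a (0.930) and Slc25a51 (0.928).

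The partners of the receptor were slightly lower in the same cells. Of its 14 listed chaperones, enzymes and co-regulators, 9 reached 20 CPM in macrophages and all 9 were lower in the Cd36-/- library, none by 2-fold, with a median log2 ratio of -0.20 against -0.01 for all genes. Hspa8, the constitutive HSP70, was 813 CPM in Cd36-/- and 1012 CPM in fl/fl macrophages, and Hsp90ab1, the constitutive HSP90, 859.9 CPM in Cd36-/- and 1061 in fl/fl. Stip1, which hands clients between these chaperones, was 23.8 CPM in Cd36-/- and 31.4 in fl/fl (log2 ratio -0.40), and Hsp90aa1 256 CPM in Cd36-/- and 296 in fl/fl. In B cells 7 of 7 were lower, with a median of -0.42 against 0.02 for all genes, among them Hsp90aa1 at 353 CPM in Cd36-/- and 587 CPM in fl/fl cells. In Alox15-high LPM 6 were higher and 4 lower, with a median of 0.05 that equals that of all genes, and Ptges3, the p23 co-chaperone, was 107 CPM in Cd36-/- and 77.4 CPM in fl/fl cells. Hsph1, an HSP110 from the list of stress genes, was lower as well, with a log2 ratio of -0.87 in macrophages, and was 15.6 CPM in Cd36-/- and 41.0 CPM in fl/fl B cells.

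Other genes known to be raised by glucocorticoids had a median close to that of all genes in macrophages, but some of them lay apart. Of 30 listed, 16 were compared in macrophages, with 5 higher, 11 lower, none by 2-fold, and a median log2 ratio of -0.03. Lcn2, an iron-binding acute phase protein, was 46.8 CPM in Cd36-/- and 66.1 CPM in fl/fl macrophages (-0.50), and Mertk, a receptor for dead cells that also served as a macrophage marker, 46.7 CPM in Cd36-/- and 62.5 in fl/fl (-0.42). Rhob was 59.7 CPM in Cd36-/- and 78.5 in fl/fl (-0.39), and Nfkbia, the inhibitor of NF-kappaB, 255 CPM in Cd36-/- and 324 in fl/fl (-0.34). The central 95% of all genes in macrophages ran from -0.32 to 0.27, so Lcn2, Mertk, Rhob and Nfkbia lay below that range. In Alox15-high LPM, where Fkbp5 was level, Lcn2 was 64.0 CPM in Cd36-/- and 157 CPM in fl/fl cells (-1.29), Rgs2 81.4 CPM in Cd36-/- and 142 in fl/fl, Mt2 14.6 CPM in Cd36-/- and 27.6 in fl/fl, and the phosphatase gene Dusp1 137 CPM in Cd36-/- and 212 in fl/fl (-0.64). In NK cells Dusp1 was 26.4 CPM in Cd36-/- and 9.35 CPM in fl/fl cells, on 30 UMIs in Cd36-/- and 8 in fl/fl. The genes known to be repressed by glucocorticoids had 3 of 14 compared in macrophages, all higher: Irf1 at 44.5 CPM in Cd36-/- and 25.8 in fl/fl (0.79), Cxcl2 at 50.7 CPM in Cd36-/- and 36.1 in fl/fl (0.49) and Ccl5 at 149.8 CPM in Cd36-/- and 125 in fl/fl (0.27). Their median was 0.49 against -0.01 for all genes, of which 53.9% were lower. In Alox15-high LPM 1 of the 3 was higher and 2 were lower, with a median of -0.17 against 0.05 for all genes. There Ccl5 was at 117 CPM in Cd36-/- and 177 CPM in fl/fl cells. In NK cells 0 were higher and 4 lower, with a median of -0.10 against 0.04. In T cells 2 of 2 were higher, with a median of 0.27 against 0.08 for all genes, Irf1 at 0.50 and Ccl5 at 0.04. In cDC2 3 of 3 were higher, with a median of 0.06 against 0.05 for all genes and every interval including 0. In B cells Ccl5 was 198 CPM in Cd36-/- and 95.5 in fl/fl beside Cd3d, a T-cell gene, at 28.9 CPM in Cd36-/- and 9.32 CPM in fl/fl B cells. In NK cells Ccl5 was 23156 CPM in Cd36-/- and 23704 in fl/fl. The part of T- and NK-cell RNA in the Ccl5 values of B cells and macrophages was not tested.

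**Figure D5:**
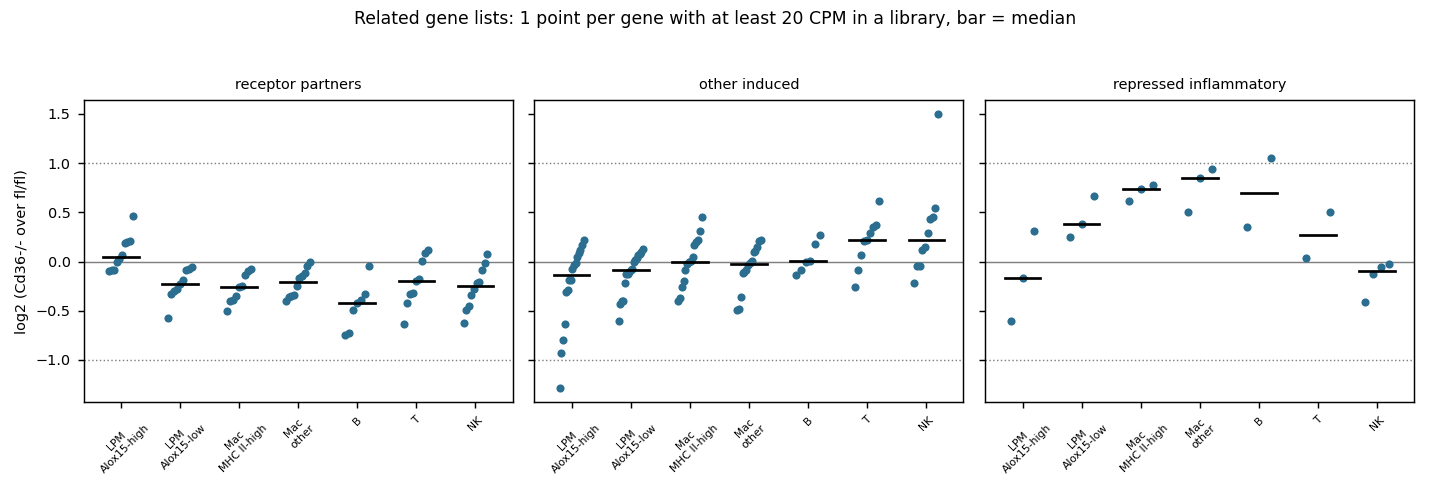
Log2 ratio of Cd36-/- over fl/fl for genes of 3 related lists in 7 classes; 1 point per gene at 20 CPM in a library, and bars are medians. The receptor partners lie below 0 in all 7 classes by their median except Alox15-high LPM, where it is 0.05.

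Among genes at 20 CPM, the remaining lists had few with large differences in macrophages. Of the clock genes 3 of 16 were compared. Nfil3 was 27.9 CPM in Cd36-/- and 36.9 CPM in fl/fl cells (-0.40) while Bhlhe40 was 77.3 CPM in Cd36-/- and 67.4 in fl/fl (0.20). Of the clock genes below 20 CPM, Per2 (log2 ratio -1.41), Nr1d1 (-0.67), Nr1d2 (-0.54), Tef (-0.36) and Per3 (-0.34) had intervals below 0. Per2 rested on 12 UMIs in Cd36-/- and 28 in fl/fl. Arntl, Cry2 and Dbp were higher, with intervals that include 0. Of the FOXO and PI3-kinase genes, 9 of 14 were compared with 1 higher and 8 lower, and Pik3r5, an adaptor of PI3-kinase gamma, was 31.9 CPM in Cd36-/- and 47.6 in fl/fl (-0.58). Of the glucose sensing and mTOR genes, Mlx and Rheb were compared and had log2 ratios of 0.10 and 0.14. Of the immediate early and stress genes 10 of 14 were compared with 4 higher and 6 lower, and Atf3 was 22.4 CPM in Cd36-/- and 14.8 CPM in fl/fl cells. In B cells Fos was 29.3 CPM in Cd36-/- and 16.3 CPM in fl/fl cells. Dusp1, Zfp36 and Sesn1 stand in more than 1 list.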

How the data were processed

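Single-cell 3′ libraries of total peritoneal cells were deposited as unscaled matrices of UMI counts, which the authors made with Cell Ranger (software version 3.0.0 per the file headers) on mm10 per the submitters' processing notes; no normalization was applied. Cells with under 200 genes or over 10% mitochondrial UMIs were left out (36 and 509 in Cd36-/-, 38 and 773 in fl/fl), as were doublets called by Scrublet (977, 6.11%, and 728, 4.94%), in scanpy 1.11.5 under python 3.11.15.

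Cells were assigned by UMIs of marker genes per 10000 UMIs, with limits of 25 for macrophages and B cells, 10 for T cells and cDC2 and 40 for NK cells. Cells that passed several gates (223 in Cd36-/- and 162 in fl/fl) were left out. LPM needed 30 UMIs of LPM markers per 10000, Alox15-high LPM 20 of Alox15 and MHC class II-high cells 200 of MHC class II genes. Leiden clusters (leidenalg 0.10.2, resolution 1) used 2000 variable genes without the members. UMIs were summed per class and library and scaled to CPM. Ratios are log2 of Cd36-/- over fl/fl with exact conditional binomial 95% intervals (scipy 1.17.1), and levels have exact Poisson intervals. Both cover counting error only. Only the ratio intervals were checked on simulated data, for macrophages and NK cells. Those data were drawn as Poisson counts, the model that the intervals assume. With 1 library per group no test was possible and no p-value is given. A gene was compared from 20 CPM in 1 library and counted as lower from 2-fold.

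The members and gene lists were chosen with earlier results of these data known, and the Alox15 limit after the values were seen. The genes named are the members, Cd36, the 3 genes most like each member, and list genes. In some of the classes, up to 4 genes per list were named, picked among those at 20 CPM whose interval lay furthest from 0. Genes at 20 CPM past 2-fold were added. Other genes with intervals far from 0 are not named. C1qa, Cd79a, Cd3d, Lepr, AY036118 and Lyz1, and list genes beyond that rule, were named after their values were seen. Positions are from GENCODE M21 and promoters from RefSeq (GRCm38.p6). Zbtb16 and Nr3c1 are not shown, nor are windows without a marked match.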

Additional observations from a re-analysis of the deposited data

How the results depend on the processing

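The count of members at least 2-fold lower in macrophages, 3 with a minimum of 20 CPM, was 5 with a minimum of 5 CPM and 5 with no minimum, because Ddit4 and Cxcr4 then entered. Under the other 11 settings (scaling, filters, doublets kept, stricter gates, clusters in place of gates, shared barcodes or Alox15-high LPM left out) it ran from 2 to 4, and the Klf9 ratio ran from -1.24 to -0.99. Of 988 ratios recomputed under alternatives, 954 stayed within the counting interval of the main value. The 33 ratios that were 2-fold lower gave 361 alternatives, of which 361 kept their sign and 349 stayed 2-fold lower. In macrophages the Fkbp5 ratio ran from -2.01 without Alox15-high LPM to -1.31 with every cell weighted equally, and that of Per1 from -2.24 to -2.03. The Alox15-high values depend on where LPM were divided: at 10 Alox15 UMIs per 10000, chosen after seeing the data like the other limits, the Fkbp5 ratio was -0.37 in Alox15-high LPM, and at 30 it was 0.16. No paired analysis was possible because each group is 1 pooled library, and no replicate could be left out for the same reason. Classes with few cells, such as neutrophils and cDC2, are limited by depth.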
